A study of Arabidopsis thaliana with 5 samples.

Results

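Transcripts of 9 phloem marker and loading genes of Arabidopsis thaliana were followed in sorted leaf epidermal cells of the hdl mutant and of wild type. The genes were taken by identifier from a deposited table of 24200 genes, in which all 9 are present: the sieve element genes SEOR1 and SEOR2, the phloem regulator APL, the companion cell genes SUC2, PP2-A1 and FTIP1, the vascular sulfate transporter gene SULTR2;2, and the phloem parenchyma sugar exporter genes SWEET11 and SWEET12. The study holds 2 hdl libraries, from a mutant of HOMEODOMAIN-LIKE for which the growth notes name the allele hdl-1, and 3 WT libraries. Seedlings of both genotypes carried a red membrane reporter, AtML1pro:RCI2A-mCherry, driven by the promoter of ATML1, which is active in the epidermis. They were stratified for 2 days and grown in long days on diluted MS medium for 9 days, and about 20000 reporter-positive protoplasts per sample were collected by fluorescence-activated sorting. Each library started from 10 to 20 ng of RNA. The batch number is 1 throughout, and neither the number of plants pooled nor separate plantings are given. The p-values therefore measure the spread between these libraries, which may be technical, and the level of the targeted gene itself was not analysed here.

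Phloem carries sugar out of source leaves through sieve elements, living tubes without a nucleus that depend on the companion cells beside them. In Arabidopsis leaves, SWEET11 and SWEET12 release sucrose from phloem parenchyma into the cell wall, and SUC2 takes it up into companion cells together with protons. Sieve elements differentiate from procambium under regulators that include APL, a MYB-type transcription factor needed for phloem identity, and they fill with filaments of P-protein built from SEOR1 and SEOR2. None of these cells belongs to the epidermis, in which the sort reporter is active.

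Among the 9 genes, the sieve element genes SEOR1 and SEOR2 and the phloem regulator APL were lower in hdl. SUC2, SWEET11 and SWEET12, the sugar loading genes among the 9, did not pass the test in either direction. SEOR1, SEOR2 and APL fell to 32.9%, 31.7% and 39.1% of their WT means. The other 6 genes did not pass, with hdl means between 61.9% (FTIP1) and 143.0% (SULTR2;2) of the WT mean. Changes are log2 differences, hdl minus WT, of normalized counts with 1 added. They were fitted with limma over 20391 genes, with adjusted p-values after Benjamini and Hochberg and a threshold of 0.05. Of all tested genes 4.50% were called lower and 8.21% higher in hdl, against 3 lower and 0 higher among the 9. In 4 of the 9 genes every hdl library lay below every WT library, a pattern found in 26.9% of all tested genes, and in 2 every hdl library lay above, as in 26.7% of tested genes.

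**Figure D1:**
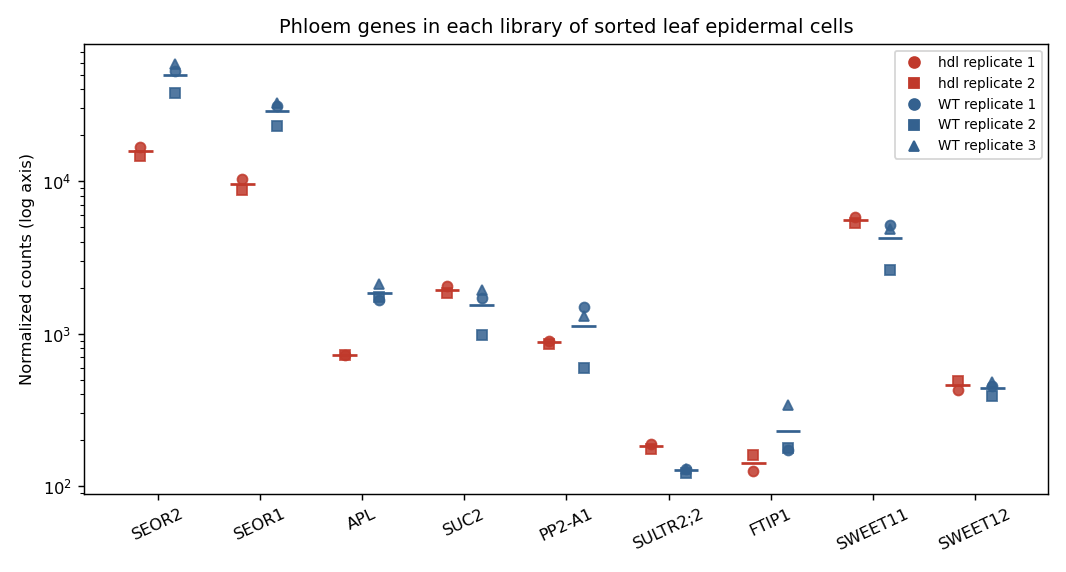
Normalized counts (log axis) of the 9 phloem genes in each library, with 2 hdl libraries in red left of 3 WT libraries in blue, and bars at the group means. SEOR2, SEOR1 and APL lie lower in both hdl libraries than in all 3 WT libraries, whereas SUC2, PP2-A1 and SWEET12 overlap between the groups.

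The libraries held 15418154 to 22838239 reads in genes, recovered from the normalized values. The sum of all normalized counts was 24548412 ± 227670 over the hdl libraries (SD, n = 2), against 19625532 ± 527832 over the WT libraries (SD, n = 3). Scaling the libraries to equal totals therefore shifted the median change of all tested genes by -0.32, to -0.37 from -0.05. It turned the split of 1674 genes higher and 917 lower in hdl into 993 higher and 2554 lower. Among the 9 genes it left SEOR1, SEOR2 and APL as the genes called, at -1.92, -1.96 and -1.67. No call by limma remained among all genes without hdl replicate 1, a fit in which the spread of the single hdl library is taken from that of WT.

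SEOR2 and SEOR1 were the most abundant of the 9 genes in WT. SEOR2 (AT3G01670, named SEOa in the annotation, chromosome 3, 247192 to 250472, plus strand) encodes a sieve element P-protein subunit. Its coordinates, like all given here, are those of the TAIR10.1 annotation. It had 16751 and 14669 normalized counts in the hdl libraries, against 52575, 37802 and 58352 in the WT libraries. Both hdl libraries lay below the lowest WT library, which was WT replicate 2. The group means were 15710 ± 1472 in hdl (SD, n = 2), against 49576 ± 10598 in WT (SD, n = 3), a log2 change of -1.64 ± 0.23 (SE, limma adjusted p = 0.0122).

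SEOR1 (AT3G01680, chromosome 3, 251868 to 255513, plus strand) encodes the partner subunit that forms P-protein filaments with SEOR2. It had 10343 and 8694 normalized counts in hdl, against 31000, 23098 and 32766 in WT. The groups were again apart, and WT replicate 2 was again the lowest WT library. The log2 change was -1.59 ± 0.21 (SE, limma adjusted p = 0.00986). Without hdl replicate 1 the log2 change was -1.72 for SEOR1 and -1.73 for SEOR2, and without hdl replicate 2 it was -1.47 and -1.54. Without WT replicate 3 the limma adjusted p was 0.0489 for SEOR1 and 0.0525 for SEOR2. Both calls need both hdl libraries, and the SEOR2 call also needs WT replicate 3.

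The SEOR genes stand in tandem on the same strand, 1395 bases apart. Their coding sequences were 63.7% identical over 2039 aligned bases and shared 0 runs of 50 bases, so reads of such length without mismatches separate them. Their ratio was nearly constant. SEOR1 had 0.617 and 0.593 times the normalized counts of SEOR2 in the hdl libraries, and 0.590, 0.611 and 0.562 times in the WT libraries. The genes that flank the pair did not pass: AT3G01690, 781 bases beyond SEOR1, had a log2 change of 0.57 (limma adjusted p = 0.252), and AT3G01660, 337 bases before SEOR2, had 0.49 (limma adjusted p = 0.535).

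APL (AT1G79430, chromosome 1, 29877228 to 29879279, minus strand) encodes the MYB-type factor of phloem identity. It had 722 and 724 normalized counts in the hdl libraries, against 1675, 1751 and 2126 in the WT libraries. The hdl libraries were almost equal and lay far below each WT library, and WT replicate 2 did not stand apart here. The means were 723 ± 1.52 in hdl (SD, n = 2), against 1851 ± 241 in WT (SD, n = 3), a log2 change of -1.35 ± 0.16 (SE, limma adjusted p = 0.00752; 0.083 without hdl replicate 1). Of its neighbours, AT1G79420 had a log2 change of -1.10 (limma adjusted p = 0.0301) and ALDH5F1 of -1.12 (limma adjusted p = 0.122).

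The 250 bases before the annotated start of each gene were read from the RefSeq genome TAIR10.1 and searched on both strands for motifs of factors tied to phloem genes. The windows of the 3 genes that fell are shown, with that of SWEET12, which did not pass, because SWEET12 shares a motif with SEOR1. Capitals mark a pair of DOF cores, AAAGNAAAG. The windows are chr3:251618-251867 (plus strand) for SEOR1, chr3:246942-247191 (plus strand) for SEOR2, chr1:29879280-29879529 (minus strand) for APL and chr5:7973996-7974245 (minus strand) for SWEET12.
SEOR1: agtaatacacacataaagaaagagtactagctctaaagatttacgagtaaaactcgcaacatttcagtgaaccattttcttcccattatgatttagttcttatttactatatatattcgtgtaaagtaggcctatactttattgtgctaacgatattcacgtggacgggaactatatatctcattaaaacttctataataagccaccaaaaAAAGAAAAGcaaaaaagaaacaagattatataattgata
SEOR2: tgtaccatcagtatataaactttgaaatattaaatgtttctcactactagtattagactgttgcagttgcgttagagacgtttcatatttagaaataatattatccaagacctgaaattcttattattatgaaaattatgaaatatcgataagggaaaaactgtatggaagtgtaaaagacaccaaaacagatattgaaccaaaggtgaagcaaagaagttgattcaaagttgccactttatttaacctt
APL: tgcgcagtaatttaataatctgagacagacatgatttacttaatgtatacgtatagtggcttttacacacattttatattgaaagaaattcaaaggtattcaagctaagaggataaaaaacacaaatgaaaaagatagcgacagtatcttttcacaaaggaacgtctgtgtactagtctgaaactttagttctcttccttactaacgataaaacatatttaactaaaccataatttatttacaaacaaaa
SWEET12: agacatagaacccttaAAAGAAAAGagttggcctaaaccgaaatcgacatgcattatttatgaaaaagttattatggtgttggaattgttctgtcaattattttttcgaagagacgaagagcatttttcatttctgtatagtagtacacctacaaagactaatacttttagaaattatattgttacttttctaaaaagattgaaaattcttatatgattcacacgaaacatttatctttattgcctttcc
The DOF pair was present in 2 of the 9 windows, in SEOR1 from 39 to 31 bases before the start and in SWEET12 from 234 to 226 bases before it, and in 6.02% of 23523 promoters of the same length. The P1BS motif of MYB-CC factors, GNATATNC, was in 0 of the 9 windows and in 5.39% of all promoters. The HD-ZIP motif CAATNATTG was in 1 window, that of SULTR2;2, and in 0.923% of all. These matches describe the letters of the windows and are not sites of binding. The windows of PP2-A1 and SULTR2;2 overlap other annotated genes, AT4G19830 and AT1G77992.

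**Figure D2:**
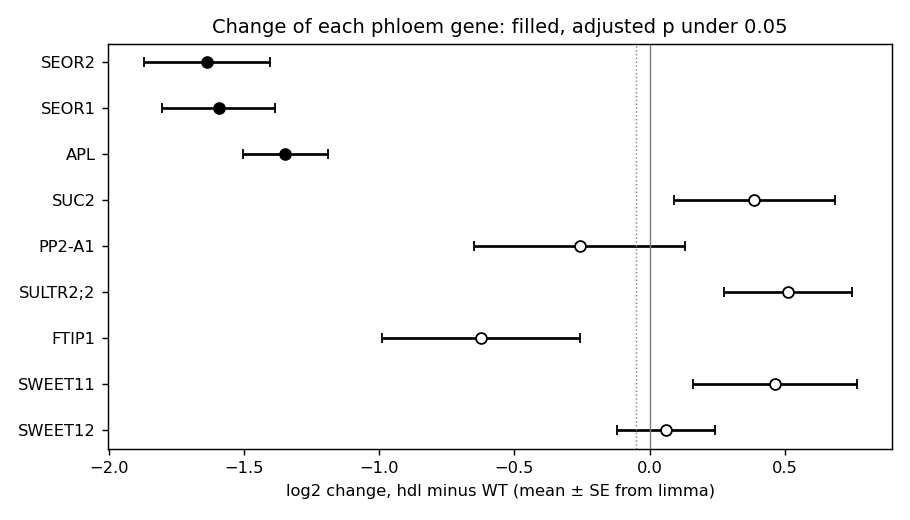
Log2 change (hdl minus WT, mean ± SE from limma) of each of the 9 phloem genes, with filled points at an adjusted p under 0.05 and a dotted line at the median of all tested genes, -0.05. SEOR2, SEOR1 and APL lie between -1.64 and -1.35, and the other 6 genes between -0.62 and 0.51 are not called.

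SUC2 (AT1G22710, chromosome 1, 8030587 to 8033156, minus strand), the sucrose and proton cotransporter of companion cells, had 2040 and 1844 normalized counts in hdl, against 1722, 983 and 1927 in WT. The groups overlapped, and WT replicate 2 lay well below the other libraries of both genotypes. The log2 change was 0.39 ± 0.30 (SE, limma adjusted p = 0.402), and it was 0.09 without WT replicate 2.

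SWEET11 (AT3G48740, chromosome 3, 18052466 to 18054832, minus strand), a sucrose exporter, had 5829 and 5319 normalized counts in hdl, against 5185, 2633 and 4835 in WT. Both hdl libraries lay above the highest WT library, but by less than the gap between WT replicate 2 and the other WT libraries. The log2 change of 0.46 ± 0.30 (SE) did not pass (limma adjusted p = 0.332), and without WT replicate 2 it was 0.15.

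SWEET12 (AT5G23660, chromosome 5, 7971647 to 7973995, minus strand), its close paralogue, had 426 and 490 normalized counts in hdl, against 451, 389 and 480 in WT. The groups overlapped, with hdl replicate 2 the highest library and WT replicate 2 the lowest, and a log2 change of 0.06 ± 0.18 (SE, limma adjusted p = 0.846). It turned to -0.26 after scaling to equal totals, -0.03 without WT replicate 2 and -0.04 without hdl replicate 2. The coding sequences of SWEET11 and SWEET12 were 82.6% identical and shared 0 runs of 50 bases.

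PP2-A1 (AT4G19840, chromosome 4, 10773804 to 10775942, plus strand) encodes a phloem lectin made in companion cells. It had 900 and 857 normalized counts in hdl, against 1486, 597 and 1308 in WT. The hdl libraries lay between WT replicate 2 and the other WT libraries, so the groups overlapped. The log2 change was -0.26 ± 0.39 (SE, limma adjusted p = 0.677). Without WT replicate 2 it was -0.67 and passed (limma adjusted p = 0.00639), and without WT replicate 1 it was -0.01. The gene overlaps AT4G19830 on the opposite strand over 284 bases, so reads of the pair may be mixed.

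FTIP1 (AT5G06850, chromosome 5, 2126944 to 2130509, minus strand) encodes a membrane protein that helps the flowering signal FT leave companion cells. It had 125 and 159 normalized counts in hdl, against 172, 178 and 340 in WT. The hdl libraries lay below all WT libraries, and WT replicate 3 was far above the other WT libraries. The log2 change of -0.62 ± 0.37 (SE) did not pass (limma adjusted p = 0.285), and without WT replicate 3 it was -0.30. FT itself was near the limit of detection, with 10.8 and 3.71 normalized counts in hdl and 2.12, 1.28 and 1.67 in WT, and was below the filter.

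SULTR2;2 (AT1G77990, named AST56 in the annotation, chromosome 1, 29317767 to 29323352, minus strand), a low-affinity sulfate transporter gene of vascular tissue, had 190 and 174 normalized counts in hdl, against 130, 122 and 130 in WT. Both hdl libraries lay above the WT libraries, which were close together. The log2 change was 0.51 ± 0.24 (SE, limma adjusted p = 0.195), and scaling to equal totals made it 0.19. The values rest on 95 to 156 reads per library, and the gene overlaps AT1G77992 on the opposite strand over 942 bases.

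Per kilobase of exon, which allows levels of different genes to be compared, SEOR2 reached 5659 ± 530 normalized counts in hdl (SD, n = 2), against 17859 ± 3818 in WT (SD, n = 3). SEOR1 reached 3585 ± 439 in hdl and 10906 ± 1939 in WT on this scale. SEOR2 ranked 356 and 400 among 24108 genes in the hdl libraries, and 56, 96 and 39 in the WT libraries. SEOR1 ranked 591 and 697 in the hdl libraries, and 113, 152 and 92 in the WT libraries.

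The order of the levels below the SEOR genes was not the same in both genotypes. In hdl, SWEET11 had 4019 ± 260 normalized counts per kilobase (SD, n = 2), above SEOR1 in each library although their ranges overlapped, and in WT it had 3041 ± 998 (SD, n = 3), below both. APL stood at 451 ± 0.949 per kilobase in hdl, below SUC2 at 948 ± 67.4 and PP2-A1 at 580 ± 19.9. In WT, APL stood at 1154 ± 150, SUC2 at 753 ± 242 and PP2-A1 at 747 ± 311, and the last pair lay within the spread of the libraries. SWEET12 at 341 ± 33.7 in hdl and 327 ± 34.5 in WT came next, and SULTR2;2 and FTIP1 were the lowest of the 9 in every library.

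The SEOR genes made up 71.8 ± 1.2% of the reads of the 9 genes in hdl (SD, n = 2), against 89.3 ± 0.820% in WT (SD, n = 3). All 9 genes together took 0.143 ± 0.0113% of the recovered gene reads in hdl and 0.450 ± 0.0990% in WT.

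Ratios of a pair of genes within a library do not depend on how libraries are scaled, and 4 were compared between the genotypes. SEOR1 had 5.07 and 4.71 times the normalized counts of SUC2 in the hdl libraries, against 18.0, 23.5 and 17 times in the WT libraries. The log2 ratio was 2.29 ± 0.07 in hdl (SD, n = 2), against 4.27 ± 0.25 in WT (SD, n = 3), a difference of -1.98 (exact permutation test, two-sided, p = 0.1, adjusted over the 4 ratios 0.2). APL had 0.354 and 0.392 times the counts of SUC2 in hdl, against 0.973, 1.78 and 1.103 times in WT, a log2 difference of -1.73 (exact permutation test, p = 0.1, adjusted 0.2). Both pairs were fully apart between the genotypes, and 0.1 is the smallest p that 10 splits of 2 against 3 libraries can give, so the design cannot reach the threshold.

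The ratio of SEOR1 to SEOR2 differed by 0.04 on the log2 scale and that of SWEET11 to SWEET12 by 0.40, both with overlapping libraries (exact permutation test, p = 0.4 for each, adjusted 0.4). SWEET11 had 13.7 and 10.8 times the normalized counts of SWEET12 in hdl, against 11.5, 6.76 and 10.07 times in WT. WT replicate 2 held the lowest of these ratios.

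**Figure D3:**
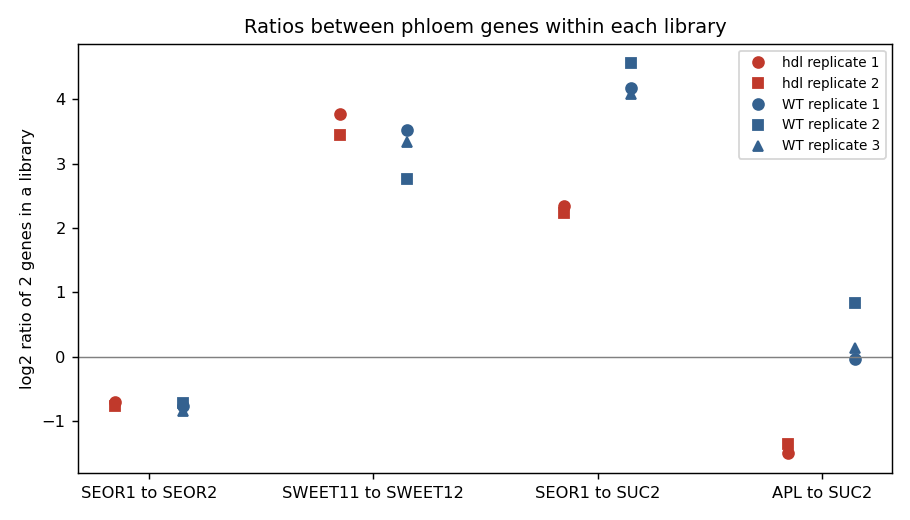
Log2 ratio of the normalized counts of 2 phloem genes within each library, with hdl libraries in red left of WT libraries in blue. The ratios of SEOR1 and of APL to SUC2 are lower in both hdl libraries than in all WT libraries, and the SEOR1 to SEOR2 and SWEET11 to SWEET12 ratios overlap.

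Likeness of pattern was measured as the root mean square difference in log2 values over the 5 libraries, after centring each gene on its own mean, against 16925 other tested genes with a mean of at least 50 normalized counts. The genes most like SEOR1 were the callose synthase gene GSL11 (AT3G59100), at 0.033, SEOR2 at 0.048, and LOI1 (AT4G14850), at 0.053, which overlaps a gene on the opposite strand. APL came at place 119 from SEOR1 with 0.212, whereas SUC2 came at place 11199 with 0.984. The genes most like SUC2 were AT3G11420 at 0.038, EMB3012 at 0.040 and AT4G19450 at 0.042, and SWEET11 came at place 50 with 0.092. SULTR2;2 came at place 2560 and SWEET12 at place 2606 from SUC2, and PP2-A1 at place 3924 from SUC2 with 0.357 and at place 4825 from SEOR1 with 0.718. FTIP1 came at place 2518 from SEOR1 with 0.585 and at place 10628 from SUC2 with 0.603. These places describe 5 libraries that all genes share.

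Among 18 listed regulators of sieve element differentiation 9 fell and 0 rose, beside 4.50% of all tested genes lower. Their median log2 change was -1.01, against -0.05 over all tested genes. DOF5.6, a DOF factor of procambial growth (AT5G62940), had 762 and 751 normalized counts in hdl, against 2231, 2422 and 2883 in WT, a log2 change of -1.72 ± 0.16 (SE, limma adjusted p = 0.00494). SMXL5, which acts with SMXL3 and SMXL4 to promote phloem formation (AT5G57130), had 801 and 763 in hdl, against 2204, 2425 and 2567 in WT, a change of -1.61 ± 0.14 (SE, limma adjusted p = 0.00435). SMXL4 changed by -1.27 and BAM3, a receptor kinase that perceives the peptide CLE45, by -1.25. In these 4 genes every hdl library lay well below every WT library.

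The other regulators called, SMXL3 at -1.59, CLE45 at -1.59, BRX at -1.31, TMO6 at -1.05 and OPS at -0.97, fell as well. CLE45 overlaps a gene on the opposite strand. The remaining 9 regulators did not pass, and 8 of them had a value below 0. NAC045 and NAC086, named after their values were seen, which act downstream of APL in the clearing of the sieve element nucleus, had log2 changes of -0.73 (limma adjusted p = 0.321, with an opposite-strand overlap) and -0.63 (limma adjusted p = 0.347). In both NAC genes the groups overlapped, with WT replicate 2 at 428 and 459 normalized counts, below both hdl libraries. Without WT replicate 3 the number of regulators that fell was 5, and without hdl replicate 1 it was 0.

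Of 15 genes of sieve element and companion cell structure and transport tested among 17, 2 rose, 2 fell and 11 did not pass, with a median of -1.08. All tested genes held 8.21% higher and 4.50% lower, so the count that rose is near the background. ENODL9, a sieve element surface protein gene that overlaps an opposite-strand gene, had 3671 and 3438 normalized counts in hdl, against 12498, 6226 and 12462 in WT, a log2 change of -1.48 ± 0.32 (SE, limma adjusted p = 0.036). AHA3, the proton pump of companion cells, had 1771 and 1742 in hdl, against 3733, 3199 and 4116 in WT, a change of -1.06 (limma adjusted p = 0.0121). Both fell in each hdl library against each WT library.

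AKT2, a potassium channel gene of phloem that is also active in mesophyll, rose. It had 1244 and 1271 normalized counts in hdl, against 234, 225 and 294 in WT, a log2 change of 2.33 ± 0.19 (SE, limma adjusted p = 0.00435). OPT3, a metal transporter gene of companion cells, rose by 0.64 (limma adjusted p = 0.0436). After scaling to equal totals its change of 0.32 did not pass (limma adjusted p = 0.166). The sieve plate callose synthase gene CALS7, chosen after its values were seen, narrowly missed the threshold at -1.26 (limma adjusted p = 0.0501). The number that fell was 8 without WT replicate 2, 1 without WT replicate 1 or hdl replicate 2, and 0 without WT replicate 3 or hdl replicate 1. The number that rose was 1 without WT replicate 1, WT replicate 3 or hdl replicate 2, and 0 without hdl replicate 1.

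Of 15 paralogues of the 9 genes tested among 19, 2 rose, 1 fell and 12 did not pass, with a median of 0.20. With 8.21% of all tested genes higher and 4.50% lower, these counts are near the background. PP2-A5, a relative of PP2-A1, had 5698 and 5476 normalized counts in hdl, against 2648, 2234 and 2395 in WT, a log2 change of 1.21 (limma adjusted p = 0.00695). SUC5, a relative of SUC2, rose by 1.46 (limma adjusted p = 0.0333), which did not pass with equal totals (1.14, limma adjusted p = 0.0501), and SUC4, the vacuolar sucrose transporter gene, fell by 1.02 on the log2 scale (limma adjusted p = 0.0377). The number that rose was 6 without WT replicate 2, 1 without WT replicate 3 or hdl replicate 2, and 0 without hdl replicate 1. The number that fell was 3 without WT replicate 2 and 0 without WT replicate 1, WT replicate 3 or hdl replicate 1.

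Of 7 genes of procambium and vascular identity 3 fell, 0 rose and 4 did not pass, beside 4.50% of all tested genes lower, and the median was -1.20. MP, an auxin response factor gene of vascular initiation that overlaps an opposite-strand gene, had 900 and 891 normalized counts in hdl, against 2339, 2183 and 2399 in WT, a log2 change of -1.36 (limma adjusted p = 0.00504). PXY, the receptor kinase gene of procambial division, changed by -1.42 (limma adjusted p = 0.00907). Without WT replicate 2 the count was 6, without WT replicate 3 it was 1, and without hdl replicate 1 it was 0.

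**Figure D4:**
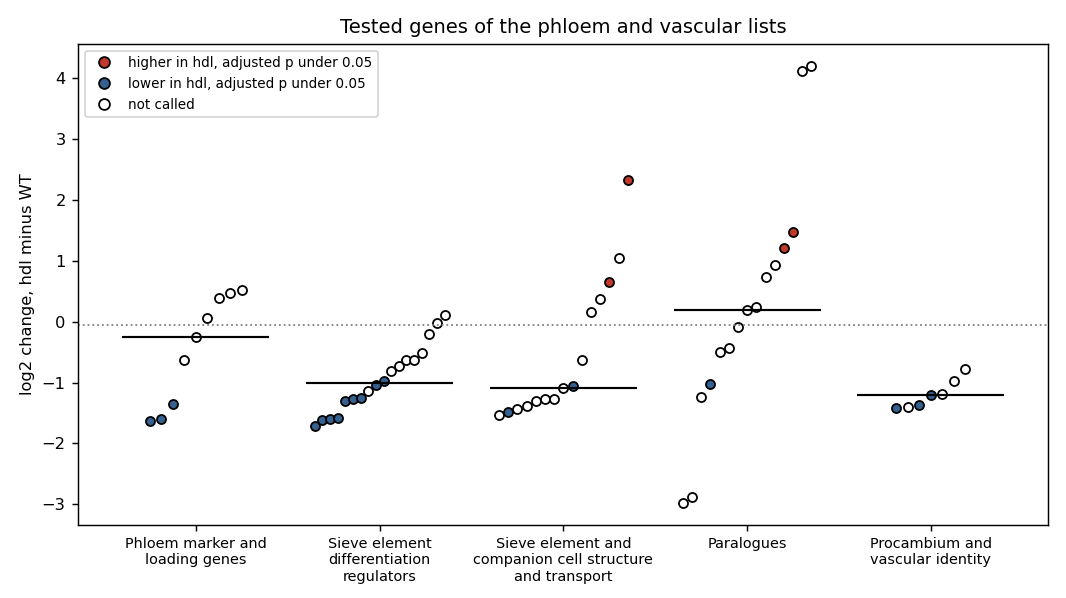
Log2 change (hdl minus WT) of each tested gene in the phloem and vascular lists, sorted within a list, with black bars at list medians and a dotted line at the median of all tested genes. The regulators of sieve element differentiation have a median of -1.01 and the procambial list of -1.20, against -0.26 for the 9 phloem marker and loading genes and 0.20 for their paralogues.

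Markers of the sorted cell type and of other cell types were read beside these changes, against 8.21% of all tested genes higher and 4.50% lower. The 8 epidermis markers had summed normalized counts of 40832 and 36884 in hdl, against 17682, 21473 and 16759 in WT. Of these 5 rose, 0 fell and 3 did not pass, among the first CER3 (1.92), CER6 (1.80), FDH (1.08) and BDG (1.07, with an opposite-strand overlap). Named after their values were seen, PDF2 rose (0.87), and PDF1 (-0.21) and ACR4 (0.21) did not pass. CER6 alone had 15706 and 14730 of the summed counts in hdl, against 4063, 5593 and 3700 in WT. ATML1, the source of the sort promoter, did not pass (0.23, limma adjusted p = 0.54, and -0.09 after scaling to equal totals), but passed without WT replicate 2 (0.47, limma adjusted p = 0.00603). It had 3562 and 3522 normalized counts in hdl, against 2549, 4183 and 2582 in WT, with WT replicate 2 the highest library. Per kilobase it stood at 792 ± 6.26 normalized counts in hdl (SD, n = 2), against 694 ± 209 in WT (SD, n = 3). On this scale ATML1 was below both SEOR genes in both genotypes.

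The 8 xylem markers summed to 15640 and 15907 normalized counts in hdl, against 47823, 24700 and 45851 in WT. Of these 2 fell, XCP2 (-1.59) and CESA8 (-0.76, with an opposite-strand overlap), 0 rose and 6 did not pass. The 7 mesophyll markers summed to 923904 and 888192 in hdl, against 634255, 462401 and 539338 in WT, with GAPA1 (1.18) and RBCS2B (0.98) rising, 0 falling and 5 not passing. RBCS1A, named after its values were seen, had 417704 and 385215 of the summed counts in hdl, against 269270, 177591 and 229938 in WT. It did not pass (0.85, limma adjusted p = 0.128). RBCS2B did not pass after scaling to equal totals (0.65, limma adjusted p = 0.0638) or with no filter (limma adjusted p = 0.0595). The 4 guard cell markers summed to 499 and 595 in hdl, against 636, 853 and 718 in WT. FAMA fell (-1.98), 0 rose and 3 did not pass. The last 3, MYB60 (0.68), KAT1 (-0.45) and GC1 (-0.33, with an opposite-strand overlap), were named after their values were seen. Both hdl libraries lay above every WT library for MYB60 and below every WT library for KAT1 and GC1. Leaving out a library changed the numbers of markers called. The xylem markers that fell were 7 without WT replicate 2 and 0 without any other of the libraries. The mesophyll markers that rose were 6 without WT replicate 2, 1 without WT replicate 1 and 0 without WT replicate 3 or either hdl library. The epidermis markers that rose were 6 without WT replicate 2, 3 without WT replicate 1 or hdl replicate 2, 2 without WT replicate 3 and 0 without hdl replicate 1, and FAMA lost its call without WT replicate 3 or hdl replicate 1. With DESeq2, 6 xylem markers fell and 6 mesophyll markers rose. Each marker of the 4 lists was above 0 in every library, and their part in the changes of the phloem genes was not tested. In such bulk samples, fewer phloem cells among the sorted cells and less phloem RNA per cell cannot be told apart.

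WT replicate 2 was the lowest WT library for 7 of the 9 phloem genes, against 43.5% of all tested genes. It was lowest for 10 of 18 regulators of sieve element differentiation, 13 of 17 structure and transport genes, 10 of 18 paralogues and 6 of 7 procambial genes. Among the markers it was lowest for 8 of 8 xylem, 4 of 7 mesophyll, 2 of 8 epidermis and 0 of 4 guard cell genes. The sieve element gene RTM2, chosen after its values were seen, had a wide gap, with 870 and 950 normalized counts in hdl, against 3908, 1134 and 4099 in WT. In SUS6 and XCP1, chosen in the same way, WT replicate 2 lay below both hdl libraries. SUS6 had 770 and 746 in hdl, against 3349, 728 and 3540 in WT. XCP1 had 1411 and 1255 in hdl, against 5100, 1134 and 4838 in WT. In SEOR1, SEOR2 and APL, WT replicate 2 lay above both hdl libraries. For SEOR1 the gap was narrower, with 23098 in WT replicate 2 against 31000 and 32766 in the other WT libraries. The part of this library in the results is given by the values without it, -1.75 for SEOR1, -1.82 for SEOR2 and -1.38 for APL, each of which passed (limma adjusted p = 0.00031, 0.000284 and 0.0011).

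**Figure D5:**
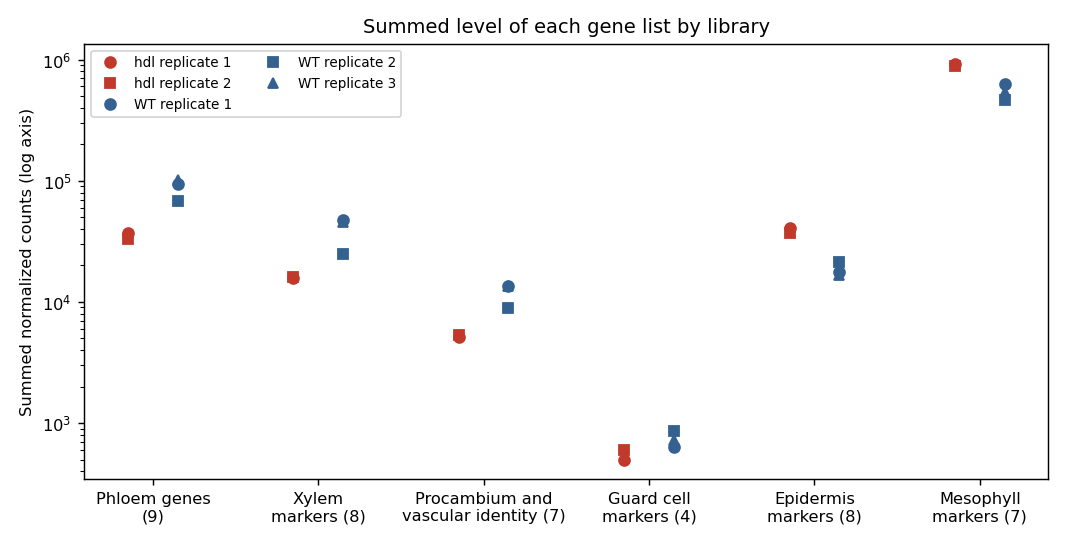
Summed normalized counts (log axis) of each gene list in each library, with the number of genes in brackets and hdl libraries in red left of WT libraries in blue. Phloem, xylem, procambial and guard cell sums are lower in both hdl libraries than in all WT libraries, and epidermis and mesophyll sums are higher. SEOR1 and SEOR2 made up on average 71.8% of the reads of the 9 phloem genes in hdl and 89.3% in WT. Of the 9 phloem genes 4 had a log2 change above 0, with 0 called higher, and 3 of the 8 epidermis markers did not pass. WT replicate 2 is the lowest WT library for the phloem, xylem, procambial and mesophyll sums.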

How the data were processed

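RNA was sequenced from sorted leaf epidermal protoplasts of 2 hdl and 3 WT samples. Per the submitters' processing notes, the build is TAIR10, with Bowtie2 2.5.0, Trimmomatic 0.33, SAMtools 1.16.1, FastQC 0.11.9, DESeq2 and deepTools among the listed programs. How reads were counted per gene, and whether by strand, is not given in the sources used here. For 24200 genes the authors deposited a normalized signal, which the file name calls DESeq2-normalized. A deposited table of counts for other features was not used. Gene names and coordinates are from the RefSeq annotation of TAIR10.1, which holds 24108 of the identifiers.

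Dividing each library by its smallest step gave whole numbers, within 0.01, for 100% of values, and these are the recovered reads. Size factors recomputed from them match the steps up to a common factor of 1.149, the factor that arises if 1 of the 5 libraries had been counted at 2 per read, and normalized values do not depend on this. Genes reaching 10 normalized counts in 2 or more libraries were tested with limma 3.58.1 in R 4.3.3, with an intensity trend on log2(value + 1) and no covariate, and checked on simulated data. edgeR 4.0.16 and DESeq2 1.42.0 on recovered reads, other scalings, pseudocounts, filters, gene sets and library sets were alternatives. The 9 genes and 8 further lists (88 genes, 87 in the table) were chosen with earlier results of these data known. Named from each list are up to 4 called genes with the smallest p, and the genes marked otherwise; 1 gene that this rule names is not reported here. The further called regulators of sieve element differentiation, NAC045, NAC086 and FT were also named after their values were seen.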

Additional observations from a re-analysis of the deposited data

How the results depend on the processing

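SEOR1, SEOR2 and APL were called lower, and no other of the 9 genes was called, with edgeR, DESeq2, equal totals, pseudocounts of 0.5 and 5, no filter, and with opposite-strand overlaps removed. That last set leaves out PP2-A1 and SULTR2;2. The calls rest on few libraries. Leaving out 1 library at a time gave 0 to 4 of the 9 genes lower, and log2 changes of -1.75 to -1.47 for SEOR1, -1.82 to -1.51 for SEOR2, -1.42 to -1.24 for APL, -0.67 to -0.0087 for PP2-A1 and -0.041 to 0.16 for SWEET12. Over all genes, it gave 0 to 3574 higher and 0 to 2295 lower, and DESeq2 gave 2619 and 2152. In the lists it gave 0 to 12 regulators of sieve element differentiation lower, 0 to 3 structure and transport genes higher and 0 to 8 lower, 0 to 6 paralogues higher and 0 to 3 lower, and 0 to 6 procambial genes lower. DESeq2 gave 9 structure and transport genes lower, 5 paralogues higher and 2 lower, and 6 procambial genes lower. With equal totals 993 genes were higher and 2554 lower, 1 structure and transport gene was higher and 6 lower, 1 paralogue was higher, and 6 procambial genes were lower. SWEET12 then turned to -0.26 and ATML1 to -0.093. The cause of these differences was not tested beyond the samples and scaling that each alternative changes. The lowest read counts of the 9 genes were 93 to 408 for FTIP1 and 95 to 156 for SULTR2;2, and whether depth bears on their tests was not tested.

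Replicate numbers pair only 2 libraries of each genotype. Deviations of same-numbered libraries from their genotype means had Pearson's r of 0.00477 and -0.0123 across genes, which are not independent. The deviations of 2 hdl libraries mirror each other, so both values rest on 1 hdl contrast and cannot decide whether libraries were paired. With the replicate number as a block, 0 genes were called higher and 0 lower, so 0 of the 9 genes and 0 of every list were called, with SEOR1 at -1.50, SEOR2 at -1.51 and APL at -1.24. That fit leaves 1 residual degree of freedom per gene and draws its contrast from 4 libraries.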
